A study of Mus musculus with 12 samples.

Results

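Macrophage marker genes were followed in the back skin of mice with imiquimod-induced psoriasis-like inflammation, with and without a herbal treatment. The set held 10 genes chosen by symbol: Adgre1, Cd68, Cd163, Mrc1, Csf1r, Lyz2, Cd14, C1qa, C1qb and C1qc. All 10 had a row among the 18505 genes of the deposited FPKM table, in which fragments are scaled by transcript length and by library size, and all 10 passed the filter on low values that left 15288 genes for testing. The mice were BALB/c males of 5 to 6 weeks by the study's methods, which name no genetic modification. Skin was taken at day 10 from 3 groups of 4 samples each. Control skin received petroleum jelly by the methods, which name no saline or dressing for it, whereas the sample labels give its treatment as "white space handling". The IMQ + NS group received imiquimod (IMQ) cream, an agonist of Toll-like receptor 7, for 6 h daily and then sodium chloride solution (NS) under a dressing. The IMQ + BZLF group received the same cream and then Banzhilian formula (BZLF), a preparation of 9 herbal materials, under the same dressing. The dose of BZLF in the sequenced samples is not given in the sources used here. Neither source says whether each sample was a separate mouse, so p-values measure the spread between these samples.

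Macrophages are tissue phagocytes that engulf microbes, dying cells and debris, present antigen and secrete complement proteins and cytokines. In skin, resident macrophages lie mainly in the dermis and around vessels, and circulating monocytes add to them during inflammation. Imiquimod-treated mouse skin is widely used as a model of psoriasis, in which macrophages, neutrophils, dendritic cells and T cells accumulate below a thickened epidermis. None of the 10 genes belongs to macrophages alone. Lyz2 and Cd14 are also expressed by monocytes and neutrophils, Csf1r by Langerhans cells and Mrc1 by lymphatic endothelium. RNA came from whole skin, so fewer macrophages, less of an RNA per macrophage and a changed share of other tissue cannot be told apart.

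The transcription factor PU.1, encoded by Spi1, is required for macrophage development and binds sequences with the core GAGGAA. The 250 bases before the annotated transcription start are shown for 5 of the markers that fell below control levels in both treated groups. They were chosen to show the neighbouring complement genes C1qb and C1qc, the promoters with most matches and, for contrast, the most abundant marker, Lyz2. The sequences are from RefSeq, build GRCm38.p6, and run 5′ to 3′ on the gene's strand. They cover chr11:69666171-69666420 on the minus strand for Cd68, chr2:14229164-14229413 on the plus strand for Mrc1, chr4:136886201-136886450 on the minus strand for C1qb, chr4:136892915-136893164 on the minus strand for C1qc and chr10:117282273-117282522 on the minus strand for Lyz2. Capitals mark GAGGAA on the gene's strand, TTCCTC (the same core on the opposite strand) and the AP-1 motif TGANTCA.
Cd68: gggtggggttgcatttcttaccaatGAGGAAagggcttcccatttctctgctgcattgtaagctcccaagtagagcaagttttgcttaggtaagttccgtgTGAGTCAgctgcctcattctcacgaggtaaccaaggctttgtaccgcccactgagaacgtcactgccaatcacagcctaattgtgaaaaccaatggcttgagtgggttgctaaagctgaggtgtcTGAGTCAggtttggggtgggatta
Mrc1: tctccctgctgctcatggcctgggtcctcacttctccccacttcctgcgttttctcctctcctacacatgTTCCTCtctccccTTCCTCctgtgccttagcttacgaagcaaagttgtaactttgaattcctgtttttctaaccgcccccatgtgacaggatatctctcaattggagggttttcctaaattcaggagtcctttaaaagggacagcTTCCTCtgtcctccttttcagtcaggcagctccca
C1qb: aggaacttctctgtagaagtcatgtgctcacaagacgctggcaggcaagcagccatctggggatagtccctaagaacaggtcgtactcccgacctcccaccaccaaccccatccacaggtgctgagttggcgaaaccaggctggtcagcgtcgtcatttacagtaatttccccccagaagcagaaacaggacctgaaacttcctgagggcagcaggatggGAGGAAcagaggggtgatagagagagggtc
C1qc: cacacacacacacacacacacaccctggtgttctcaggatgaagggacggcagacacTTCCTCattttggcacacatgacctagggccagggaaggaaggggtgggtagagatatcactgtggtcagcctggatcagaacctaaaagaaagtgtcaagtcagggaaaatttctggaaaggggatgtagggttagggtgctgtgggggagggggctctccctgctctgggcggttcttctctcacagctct
Lyz2: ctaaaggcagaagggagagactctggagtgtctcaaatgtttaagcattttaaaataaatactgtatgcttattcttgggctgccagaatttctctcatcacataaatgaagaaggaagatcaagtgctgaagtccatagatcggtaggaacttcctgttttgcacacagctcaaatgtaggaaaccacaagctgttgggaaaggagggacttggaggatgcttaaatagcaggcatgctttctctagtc

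Mrc1 held 3 copies of the PU.1 core, all on the opposite strand, at 180, 167 and 35 bases before the start. C1qb held it at 30 bases and C1qc, on the opposite strand, at 193 bases. The C1qc window runs into the gene span given below, so its distance counts from a start inside that span. Cd68 held it at 225 bases together with the AP-1 motif at 149 and 24 bases. Lyz2 held neither motif in this window, and other forms of the PU.1 site were not searched for. Among the 6 members searched in this way, Cd163 included, 4 held GAGGAA or its reverse complement and 1 held TGANTCA, and the matches did not overlap. Adgre1, Csf1r, Cd14 and C1qa were not searched, so these counts do not cover the whole set. Of all 32851 promoter windows of this length, 23.3% held GAGGAA on either strand and 6.75% held TGANTCA. A match describes letters and not binding.

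The 3 genes of complement component C1q lie side by side on mouse chromosome 4, C1qb at chr4:136880126-136886200, C1qc at chr4:136889801-136892936 and C1qa at chr4:136895916-136898844. Adgre1 lies at chr17:57358581-57483529, Cd68 at chr11:69664213-69666170, Cd163 at chr6:124304636-124330529, Mrc1 at chr2:14229414-14332023 and Lyz2 at chr10:117277541-117282272, all in GRCm38.p6.

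The markers spanned a wide range of levels, and control skin had the highest mean of the 3 groups for 9 of the 10. Lyz2 had the highest FPKM in each group, followed by C1qa, C1qc and C1qb. FPKM is scaled by length, so levels of different genes can be set side by side. The ranges of Lyz2 and C1qa did not overlap in any group, nor did those of C1qb and the gene ranked after it. All other neighbours in the order overlapped, except Cd68 and Adgre1 in IMQ + BZLF skin. Adgre1 stood 9th of the 10 in control skin, 5th in IMQ + NS skin and 8th in IMQ + BZLF skin. Cd163 stood 8th, 10th and 9th. The IMQ + BZLF group had the lowest mean for 9 members, and IMQ + NS for the other, Cd163. Within a group, the genes tended to be high or low in the same samples. IMQ + BZLF replicate 1 was the lowest of its group for all 10 genes, and control replicate 3 was the highest of its group for 9. The summed FPKM of the 10 genes was 1840 to 2638 in control skin, 1159 to 1758 in IMQ + NS skin and 772 to 1211 in IMQ + BZLF skin.

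**Figure D1:**
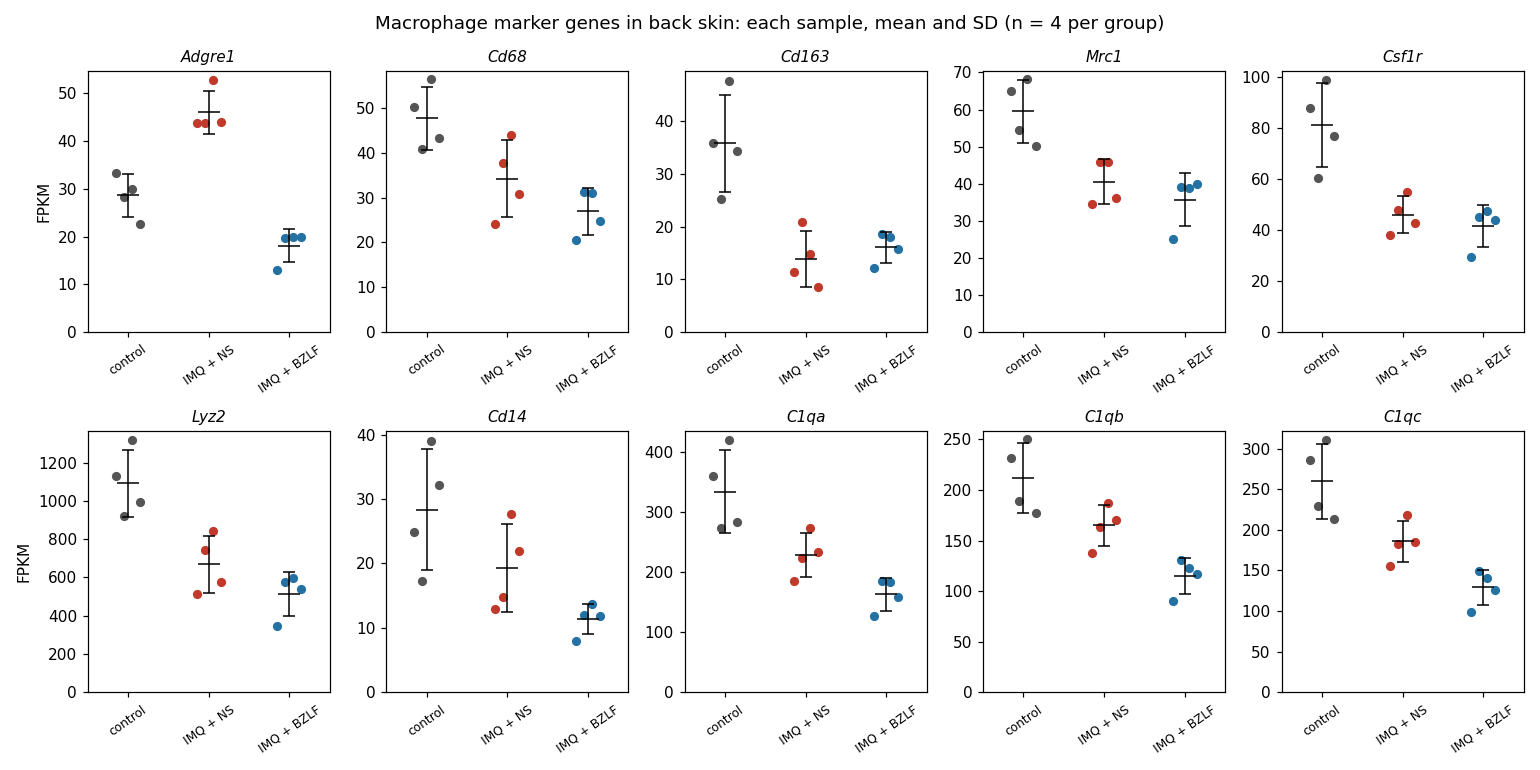
FPKM of each of the 10 macrophage marker genes by sample, on linear axes from 0, with points for the 4 samples of each group, a black dash for the mean and error bars for the SD. Adgre1 was highest in IMQ + NS skin (43.7 to 52.7 FPKM), and the other 9 genes had their highest mean in control skin.

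The table holds no counts, so the number of fragments behind each value is not given by it. From the lowest FPKM values of 1722 genes, the FPKM worth of 1 fragment lay between 0.975 and 1.04 of that in control replicate 1, so libraries differed little in size. FPKM sums were 444660 to 506622 and 16649 to 16941 genes were above 0 in each sample. The labelled tissue was checked against keratinocyte markers, whose summed FPKM was 2611 to 4594 in control skin, 6001 to 9512 in IMQ + NS skin and 2900 to 4966 in IMQ + BZLF skin.

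The first comparison asked how the markers differed between inflamed and control skin. Most macrophage markers were lower in IMQ + NS skin than in control skin, and Adgre1 was higher. By limma with Benjamini-Hochberg adjustment over all 15288 genes, 8 members fell, 1 rose and Cd14 did not pass. Of all genes tested, 27.1% were called lower and 29.0% higher. The median log2 fold change was -0.54 over the 10 members and 0.05 over all genes, and 9 members were below 0 against 46.5% of all genes. With FPKM rescaled to equal sums, 3161 genes were higher and 4999 lower, against 4427 and 4142 as deposited. Leaving out control replicate 1, control replicate 3 or IMQ + NS replicate 1 left 4 members called lower, Cd68 and the 3 C1q genes losing their calls, and leaving out control replicate 2 gave 9.

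Adgre1 encodes F4/80, an adhesion-type G protein-coupled receptor that has long served as the standard surface marker of mouse macrophages. Its FPKM was 33.3, 28.3, 30.0 and 22.6 in the control samples, 43.8, 43.7, 52.7 and 43.9 in the IMQ + NS samples and 12.9, 19.7, 19.9 and 20.0 in the IMQ + BZLF samples. Every IMQ + NS sample was above every control sample, and every IMQ + BZLF sample was below both other groups. The mean rose from 28.6 ± 4.46 to 46.0 ± 4.47 (SD, n = 4), a log2 fold change of 0.70 (SE 0.12, limma adjusted p = 0.00165). The exact two-sided permutation test gave p = 0.0286, the smallest that 4 against 4 samples allow.

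Cd68 encodes macrosialin, a glycoprotein of lysosomes and late endosomes that is abundant in phagocytes. It measured 50.1, 40.9, 56.5 and 43.4 FPKM in control, 24.1, 37.8, 44.0 and 30.9 in IMQ + NS and 20.6, 31.3, 31 and 24.7 in IMQ + BZLF skin. Control and IMQ + NS samples overlapped, since IMQ + NS replicate 3 exceeded the lowest control samples. The log2 fold change between them was -0.51 (SE 0.19, limma adjusted p = 0.0453), close to the threshold and lost in 8 of 19 alternatives, and the exact permutation p was 0.0857.

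Csf1r encodes the receptor for the growth factors CSF1 and IL-34, on which most tissue macrophages and Langerhans cells depend. Its FPKM was 87.8, 60.4, 98.8 and 76.6 in control, 37.9, 47.9, 54.9 and 42.8 in IMQ + NS and 29.3, 44.9, 47.5 and 43.8 in IMQ + BZLF skin. All control samples were above all samples of both treated groups, which overlapped each other. Csf1r fell by 0.81 on the log2 scale in IMQ + NS skin (SE 0.17, limma adjusted p = 0.00346).

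The scavenger receptors fell too. Cd163 encodes the receptor that clears haemoglobin bound to haptoglobin and marks resident and anti-inflammatory macrophages. It measured 35.9, 25.3, 47.6 and 34.4 FPKM in control, 11.3, 20.9, 14.8 and 8.61 in IMQ + NS and 12.1, 18.6, 18.0 and 15.7 in IMQ + BZLF skin. The control samples did not overlap with either treated group. Its log2 fold change in IMQ + NS skin, -1.40 (SE 0.28, limma adjusted p = 0.00291), was the only member's fall of over 2-fold, against 11.0% of all genes called lower by over 2-fold.

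Mrc1 encodes the mannose receptor CD206, which takes up glycoproteins and microbial sugars. It measured 65.0, 54.6, 68.3 and 50.1 FPKM in control, 34.5, 45.9, 45.9 and 36.2 in IMQ + NS and 25.0, 39.1, 38.8 and 40.0 in IMQ + BZLF skin. Here too every control sample was above every treated sample. The log2 fold change in IMQ + NS skin was -0.55 (SE 0.14, limma adjusted p = 0.00863).

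Among the secreted products, Lyz2 encodes lysozyme M, which cleaves bacterial cell walls. Its FPKM was 1131, 922, 1316 and 995 in control, 515, 745, 839.8 and 574 in IMQ + NS and 348, 576, 595 and 538 in IMQ + BZLF skin. The control samples lay above all others. Lyz2 fell by 0.72 on the log2 scale in IMQ + NS skin (SE 0.17, limma adjusted p = 0.00729).

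C1qa, C1qb and C1qc encode the A, B and C chains of C1q, the recognition protein of the classical complement pathway, made in tissues largely by macrophages. C1qa measured 359, 273, 420.0 and 284 FPKM in control, 185, 223, 273 and 233 in IMQ + NS and 127, 185, 183 and 159 in IMQ + BZLF skin. C1qb measured 232, 189, 250.3 and 177 in control, 138, 163, 187 and 170.0 in IMQ + NS and 90.3, 131, 123 and 117 in IMQ + BZLF skin. C1qc measured 286, 229, 311 and 213 in control, 156, 183, 218 and 185 in IMQ + NS and 99.2, 149.9, 140.3 and 126 in IMQ + BZLF skin. For all 3 chains the control and IMQ + NS ranges overlapped only at the highest IMQ + NS sample, and the IMQ + BZLF samples lay below every control sample. The log2 fold changes in IMQ + NS skin were -0.54 for C1qa, -0.36 for C1qb and -0.48 for C1qc, with limma adjusted p of 0.0212, 0.0456 and 0.0205. The exact permutation p was 0.0571 for each chain. Over 19 alternatives C1qb lost its call in 8 (adjusted p up to 0.118), and C1qa and C1qc in 3 each.

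Cd14 encodes the co-receptor that hands bacterial lipopolysaccharide to Toll-like receptor 4. Its FPKM was 24.8, 17.2, 39.0 and 32.1 in control, 13, 14.8, 27.7 and 21.9 in IMQ + NS and 8.03, 12, 13.7 and 11.8 in IMQ + BZLF skin. Control samples varied widely for Cd14 and overlapped with IMQ + NS skin. Its log2 fold change of -0.55 (SE 0.30) did not pass (limma adjusted p = 0.151).

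Between IMQ + NS and control skin, 4 members were lower without overlap of the groups (Cd163, Mrc1, Csf1r and Lyz2), against 25.7% of all genes, and Adgre1 was higher without overlap, against 23.7%.

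Genes of other cell types moved in the same comparison. Skeletal muscle markers were called lower for 10 of 10 genes (median log2 fold change -2.90), fibroblast markers for 8 of 10, adipocyte markers for 9 of 10 and vessel markers for 9 of 11. Keratinocyte markers were called higher for 8 of 10 and neutrophil markers for 12 of 16, while 2 neutrophil markers, Mpo and Prtn3, were called lower. Langerhans and dendritic cell markers were called lower for 10 of 16 and higher for 3. Of all genes 27.1% were called lower and 29.0% higher. The summed FPKM of the Langerhans and dendritic cell list was 1704 to 2728 in control, 678 to 844 in IMQ + NS and 605 to 917 in IMQ + BZLF skin. The summed FPKM of the neutrophil list was 59.1 to 86.1 in control, 3219 to 10092 in IMQ + NS and 80.3 to 105 in IMQ + BZLF skin. S100a8 and S100a9 made up most of the IMQ + NS sum, with means of 3010 and 2909 FPKM there. Which cells made these RNAs was not tested. The summed FPKM of the muscle list was 4447 to 11126, 831 to 1944 and 1421 to 1952 in the same order of groups. No gene of these lists was at 0 in all samples. The part of these shifts in the marker values was not tested.

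The second comparison asked how the markers differed between skin treated with BZLF and skin treated with saline after imiquimod. Adgre1 and C1qb were the 2 members called lower, against 5.17% of all genes, and 0 were called higher, by limma, against 1.28% of all genes. At an unadjusted p under 0.05, 5 members were lower and 0 higher, counts for which the share of all genes was not taken. The median log2 fold change was -0.43 over the members and -0.02 over all genes, and 9 members were below 0 against 55.0% of all genes. Over all genes 195 were higher and 791 lower as deposited, 295 and 579 with median ratio scaling and 311 and 659 with quantile normalization. Both this and the preceding comparison use the IMQ + NS samples, so their fold changes are not independent.

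Adgre1 fell from 46.0 ± 4.47 to 18.1 ± 3.47 FPKM (SD, n = 4 each), by 1.36 on the log2 scale (SE 0.14, limma adjusted p = 0.00157). Without IMQ + BZLF replicate 1, the lowest sample, the log2 fold change was -1.20 (adjusted p = 4.2e-04). It was the only member called lower by over 2-fold, against 2.20% of all genes. C1qb fell from 165 ± 20.2 to 115 ± 17.8 FPKM, by 0.52 on the log2 scale (SE 0.13, limma adjusted p = 0.047). The other C1q chains stood alike in size but missed the threshold, with log2 fold changes of -0.49 for C1qa (adjusted p = 0.086) and -0.53 for C1qc (adjusted p = 0.055). Adgre1 and the 3 C1q chains were the 4 members whose groups did not overlap, against 10.9% of all genes. The call for C1qb rested on few libraries. It was lost when any library other than IMQ + NS replicate 1 was left out and the count of lower members became 1, whereas without IMQ + NS replicate 1 that count was 3.

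The remaining members did not pass. Cd14 went from 19.3 ± 6.76 to 11.4 ± 2.38 FPKM, a log2 fold change of -0.72 (SE 0.25, limma adjusted p = 0.125), and Lyz2 from 668 ± 150.2 to 514 ± 114, one of -0.38 (adjusted p = 0.305). Cd68, Mrc1 and Csf1r had log2 fold changes of -0.33, -0.20 and -0.16. Cd163 had the only positive value, 0.27 (SE 0.25, adjusted p = 0.572).

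**Figure D2:**
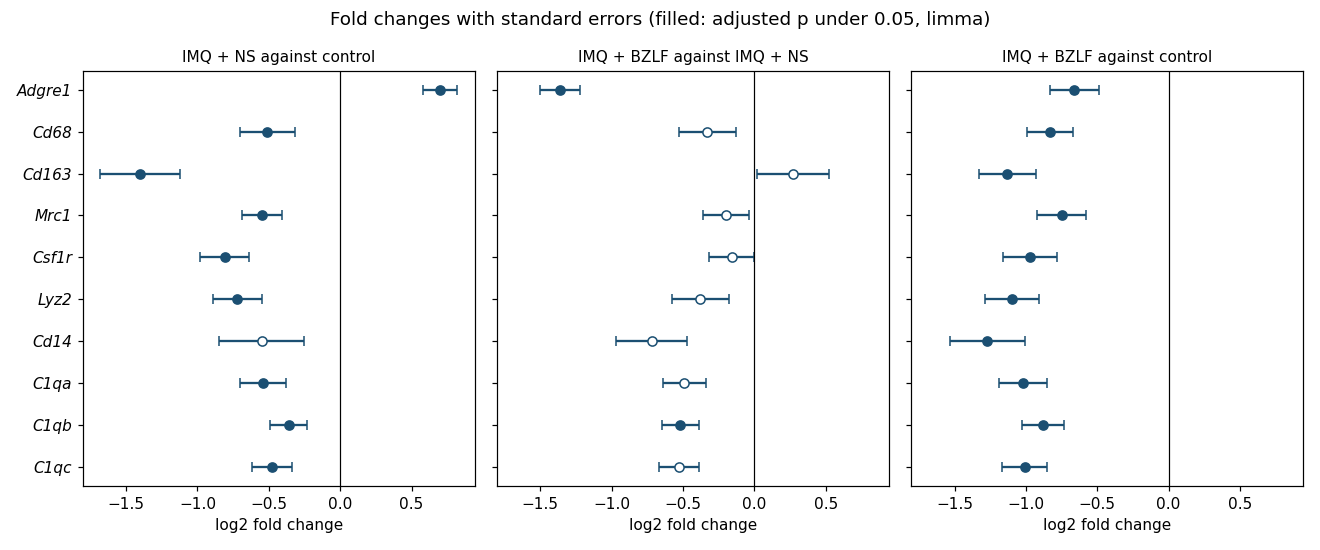
Log2 fold change of each marker gene in the 3 comparisons, on the log2(FPKM + 0.1) scale, with error bars of 1 SE and filled points for genes called at an adjusted p under 0.05. Adgre1 was called in opposite directions, at 0.70 for IMQ + NS over control and -1.36 for IMQ + BZLF over IMQ + NS.

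Genes shared by many leukocytes were lower in IMQ + BZLF than in IMQ + NS skin. Ptprc, which encodes CD45, the phosphatase on all leukocytes, measured 8.76, 7.40, 10.7 and 8.42 FPKM in control, 10.6, 11.6, 17.7 and 14.4 in IMQ + NS and 4.20, 6.81, 6.41 and 7.37 in IMQ + BZLF skin. Its log2 fold change was 0.60 (limma adjusted p = 0.0186) for IMQ + NS over control and -1.12 (adjusted p = 0.0144) for IMQ + BZLF over IMQ + NS. Spi1, which encodes PU.1, measured 33.7, 30.5, 32.4 and 26.6 in control, 21.8, 28.4, 37.9 and 31.6 in IMQ + NS and 9.23, 15.7, 16.3 and 15 in IMQ + BZLF skin. Every IMQ + BZLF sample was below every other sample for Spi1, whose log2 fold changes were -0.06 (adjusted p = 0.752) and -1.09 (adjusted p = 0.018). Of 10 pan-leukocyte genes, 3 were called higher in IMQ + NS than in control skin, near the share of all genes. Of the same 10, 9 were called lower in IMQ + BZLF than in IMQ + NS skin, against 5.17% of all genes. Of 16 neutrophil markers 13 were lower in that comparison and 1, Mpo, was higher. The part of these genes' cells in the fall of Adgre1 and C1qb was not tested.

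The third comparison set IMQ + BZLF skin against control skin. All 10 markers were lower, with no overlap of the groups for any of them, against 29.2% of all genes called lower and 28.1% lower without overlap. By limma 0 members were called higher, against 23.8% of all genes. At an unadjusted p under 0.05 also 0 members were higher, without a share of all genes to set beside it. The median log2 fold change was -0.99 over the members and -0.02 over all genes, of which 51.2% were below 0. Over all genes 3640 were higher and 4458 lower as deposited, and 2771 and 5179 with FPKM rescaled to equal sums. Log2 fold changes ran from -0.66 for Adgre1 (SE 0.17, adjusted p = 0.0115) to -1.27 for Cd14 (SE 0.26, adjusted p = 0.00368). Cd163, Lyz2, Cd14, C1qa and C1qc, 5 members, were lower by over 2-fold, against 10.1% of all genes.

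Lyz2 stood at 514 ± 114 FPKM in IMQ + BZLF skin against 1091 ± 173 in control skin (SD, n = 4), a ratio of 0.466 (limma adjusted p = 0.00147). C1qa stood at 163 ± 27.0 against 334 ± 69.0 (adjusted p = 0.00137) and Cd163 at 16.1 ± 2.92 against 35.8 ± 9.15 (adjusted p = 0.00192). Cd68 was lower by 0.83, Mrc1 by 0.75 and Csf1r by 0.97 on the log2 scale. Muscle (10 of 10), fibroblast (8 of 10), adipocyte (8 of 10) and vessel markers (11 of 11) were called lower in this comparison as well, against 29.2% of all genes. The part of these markers in the values above was not tested.

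Setting each marker against Ptprc gave another view of the same samples, the level of a macrophage gene per unit of a gene of all leukocytes. The log2 ratio of FPKM values is described here without a test. In IMQ + NS skin 9 members had a lower ratio to Ptprc than in control skin with no overlap, against 37.5% of all genes, by 0.97 for C1qb up to 2.01 for Cd163. Adgre1 was the exception, with 1.42 to 1.94 in control, 1.58 to 2.05 in IMQ + NS and 1.44 to 1.64 in IMQ + BZLF skin, ranges that overlapped throughout. In IMQ + BZLF skin the ratio of the other 9 members was above that in IMQ + NS skin with no overlap, by 0.41 for Cd14 up to 1.40 for Cd163. The same held for 84.0% of all genes, since Ptprc itself fell by 1.12 on the log2 scale, so the count is near what genes in general showed. The log2 ratio of Cd163 was 1.78 to 2.15 in control, -0.74 to 0.85 in IMQ + NS and 1.09 to 1.53 in IMQ + BZLF skin. That of Lyz2 was 6.88 to 7.01, 5.32 to 6.0 and 6.19 to 6.54. Against control skin, 7 members were lower in ratio in IMQ + BZLF skin, against 8.69% of all genes, while Adgre1, Mrc1 and C1qb overlapped. Neutrophils carry Ptprc as well, and of 16 neutrophil markers 12 were called higher and 2 lower in IMQ + NS than in control skin.

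**Figure D3:**
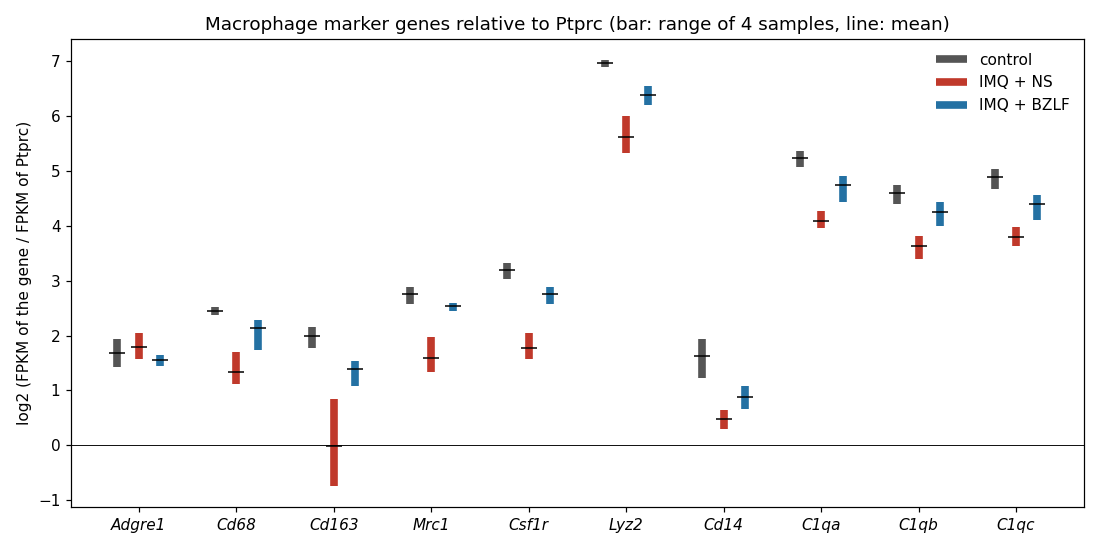
Log2 ratio of each marker gene's FPKM to that of Ptprc (CD45) in each group, with bars for the range of the 4 samples and black dashes for the mean. For 9 genes the IMQ + NS samples lay below both other groups, and the Adgre1 ranges overlapped.

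The chains of C1q kept nearly fixed proportions. The FPKM of C1qb was 0.596 to 0.694 of that of C1qa in control, 0.683 to 0.747 in IMQ + NS and 0.675 to 0.733 in IMQ + BZLF skin. That of C1qc was 0.741 to 0.841, 0.794 to 0.845 and 0.768 to 0.811 of C1qa. The C1qc ratios overlapped between all groups, and the C1qb ratios lay slightly lower in control skin, with an overlap at the highest control sample.

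Lyz1, the neighbouring lysozyme gene at chr10:117287795-117292868, moved further than Lyz2. It measured 46.5, 31.2, 77.5 and 49.9 FPKM in control, 9.12, 8.08, 7.71 and 9.85 in IMQ + NS and 11.1, 15.2, 14.8 and 12 in IMQ + BZLF skin, with no overlap between any of the groups. It fell by 2.48 on the log2 scale in IMQ + NS skin (SE 0.24, limma adjusted p = 6.8e-05) and was higher by 0.60 in IMQ + BZLF than in IMQ + NS skin (SE 0.12, adjusted p = 0.0216). As a percentage of Lyz2, Lyz1 was 3.38 to 5.89 in control, 0.917 to 1.77 in IMQ + NS and 2.22 to 3.2 in IMQ + BZLF skin. The GENCODE transcripts of the genes, 1263 bases for Lyz1 and 1316 for Lyz2, are 96.0% identical over 1262 aligned bases, and 32.8% of the 31-base words of Lyz2 occur in Lyz1. How the counting divided such shared fragments is not given in the sources used here, so both lysozyme values are uncertain.

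Within groups, the 10 markers varied together. After each gene's group means were removed from its log2 values, Pearson's r over the 12 samples ran from 0.37 to 0.99 across the 45 pairs, with a median of 0.83. These values describe samples that share their library and tissue composition. The C1q chains were nearest to each other, with r of 0.99 for C1qb and C1qc. Searched over 12656 genes in the same way, the genes most like Csf1r were P2rx4 (r = 0.99), Man2b1 (0.98) and Cybb (0.98). Those most like Cd68 were F13a1 (0.99), Ifi30 (0.98) and Folr2 (0.94), and those most like Cd163 were Gpr34 (0.97), Ptpro (0.94) and Tle6 (0.93). For Lyz2 they were Fcgr3 (0.98), Tlr8 (0.97) and Ctss (0.97), for Mrc1 Scamp5 (0.98), Cd84 (0.97) and Ly86 (0.96), and for Cd14 Glmp (0.93), Cyp7b1 (0.92) and Tnfaip2 (0.92). The genes most like Adgre1 were Arhgef2, Hk1 and Cd55, each with r of 0.94.

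Other genes of macrophage biology fell into 9 lists, whose counts are read against all genes tested, of which 29.0% were called higher and 27.1% lower in IMQ + NS than in control skin and 5.17% lower in IMQ + BZLF than in IMQ + NS skin. Of 22 further surface and scavenger receptors, 11 fell and 1 rose in IMQ + NS skin compared with control, with a median log2 fold change of -0.86. Mgl2, a galactose-type lectin of dermal macrophages and dendritic cells, fell most, from 50.7 to 2.14 FPKM (log2 fold change -4.52, limma adjusted p = 3.3e-07). Timd4, a receptor for phosphatidylserine on resident macrophages, went from 5.93 to 0.254 and Lyve1, a hyaluronan receptor of perivascular macrophages and lymphatic vessels, from 21.2 to 4.32. Folr2, a folate receptor of resident macrophages, went from 75.4 to 18.5. Each of these 4 receptors fell with an adjusted p of at most 2.4e-04. In IMQ + BZLF skin Timd4 rose to 0.894 (log2 fold change 1.45 over IMQ + NS, adjusted p = 0.0112) and Clec10a, a lectin related to Mgl2, from 16.3 to 29.3 (0.84, adjusted p = 0.0282). Clec7a, the beta-glucan receptor Dectin-1, fell from 6.88 to 2.55 (-1.38, adjusted p = 0.0488) and Sirpa, which binds CD47 on other cells, from 27.0 to 16.6. Clec4n, the receptor Dectin-2, was the 1 receptor that rose in IMQ + NS skin, from 11.1 to 18.0 FPKM (0.67, adjusted p = 0.0126). Compared with control skin, 16 of the 22 were lower in IMQ + BZLF skin, against 29.2% of all genes.

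Of 12 Fc receptors and their adaptors, 4 rose in IMQ + NS skin, near the 29.0% of all genes, and 9 fell from there in IMQ + BZLF skin, against 5.17%. Fcgr4, an activating receptor for IgG on monocytes, macrophages and neutrophils, went from 2.41 to 19.2 and then 3.13 FPKM (log2 fold changes 3.02 and -2.61, limma adjusted p of 4.3e-05 and 2.4e-04). Fcer1g, the shared signalling chain of these receptors, measured 71.9, 79.4 and 31.8 FPKM and fell by 1.34 in IMQ + BZLF compared with IMQ + NS skin (adjusted p = 0.00469).

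Of 18 genes of the CSF1 axis and macrophage transcription factors, 5 rose and 6 fell in IMQ + NS skin, near the 29.0% and 27.1% of all genes. The ligands of the Csf1r receptor were among those that fell. Csf1 went from 20.8 to 8.40 FPKM (log2 fold change -1.29, limma adjusted p = 9.1e-05) and Il34, made in skin by keratinocytes, from 11.5 to 3.82 (-1.52, adjusted p = 6.7e-04). Both stood alike in IMQ + BZLF skin, at 8.25 and 4.17 FPKM. Runx1, a transcription factor of blood cells and epithelium, rose from 2.36 to 6.87 FPKM (1.56, adjusted p = 4.8e-04). In IMQ + BZLF compared with IMQ + NS skin 5 of the 18 fell, Spi1 among them.

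Genes of activation states split within each list, and which cells of the skin made their RNA was not tested. Of 18 alternatively activated macrophage genes, 9 fell and 6 rose in IMQ + NS skin. From there 4 fell and 2 rose in IMQ + BZLF skin, against 5.17% and 1.28% of all genes. Retnla, a secreted resistin-like protein induced by interleukin-4, went from 538 to 16.1 FPKM (log2 fold change -5.00, limma adjusted p = 8.0e-06) and then rose to 54.7 in IMQ + BZLF skin (1.77, adjusted p = 0.00413). Ccl24, an eosinophil-attracting chemokine, went from 31.4 to 2.45 and rose to 6.18. Arg1, the enzyme arginase 1 that breaks down arginine, moved oppositely, from 7.54 to 27.6 FPKM (1.88, adjusted p = 6.9e-05), and stood at 27.7 in IMQ + BZLF skin. Il4ra, the receptor chain for interleukin-4 and interleukin-13, measured 10.4, 10.9 and 6.04 FPKM and fell between the imiquimod groups (-0.85, adjusted p = 0.0245). Of 17 classically activated genes, 4 rose and 5 fell in IMQ + NS skin, near the 29.0% and 27.1% of all genes, and 5 fell from there in IMQ + BZLF skin. Il1b, the cytokine interleukin-1 beta, measured 5.67, 28.5 and 2.07 FPKM and had the deepest fall of the list in IMQ + BZLF compared with IMQ + NS skin (-3.53, adjusted p = 0.00348). Irf1, an interferon-response transcription factor, went from 12.2 to 8.03 and 7.26. Fpr2, a formyl peptide receptor shared with neutrophils, went from 1.55 to 8.01 and then 0.946 FPKM. Nos2, the inducible nitric oxide synthase, was at 0.762, 0.420 and 0.421 FPKM. Tnf was at 2.35 and 1.66 and then 0.386 FPKM, a fall of 1.93 on the log2 scale between the imiquimod groups (adjusted p = 0.0108).

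Of 18 monocyte genes, 6 rose and 7 fell in IMQ + NS skin, against 29.0% and 27.1% of all genes, and 7 fell in IMQ + BZLF compared with IMQ + NS skin. The monocyte-attracting chemokines Ccl7 and Ccl2 went from 42.9 to 7.05 and from 19.1 to 4.42 FPKM (log2 fold changes -2.62 and -2.15). Ccr2, the receptor for Ccl2 on inflammatory monocytes, measured 9.20, 11.6 and 6.41 FPKM and passed in neither comparison with IMQ + NS skin. Chil3, a chitinase-like protein of monocytes and neutrophils, went from 0.197 to 4.08 and then 0.216 FPKM. Thbs1, the matrix protein thrombospondin-1, was higher in IMQ + BZLF than in control skin, at 17.0 against 9.55 FPKM (0.92, adjusted p = 0.0191). Chil3 and Mgl2 have similar relatives in the mouse genome, with which reads may have been shared.

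Of 26 genes of lysosomes and phagocytosis, 8 rose and 5 fell in IMQ + NS skin, against 29.0% and 27.1% of all genes, though 6 rose and 7 fell with FPKM rescaled to equal sums. Of these genes 9 fell from there in IMQ + BZLF skin. Compared with control skin, 17 were lower in IMQ + BZLF skin, against 29.2% of all genes. Itgam, the CD11b integrin of myeloid cells, went from 13.1 to 28.6 and then 8.38 FPKM, and Aif1, the actin-binding protein IBA1, from 19.7 to 30.1 and then 9.91. Gpnmb, a glycoprotein of lipid-loaded macrophages and melanocytes, was higher than control in both treated groups, at 34.8, 58.7 and 69.3 FPKM. Hexa, a lysosomal hexosaminidase, went from 155 to 58.3 and 55.2 FPKM. Of 16 partners of Cd14 and Toll-like receptors, 4 rose and 2 fell in IMQ + NS skin, or 2 and 3 with equal sums, no larger a share than among all genes, and 5 fell in IMQ + BZLF compared with IMQ + NS skin. Tlr4 itself fell from 4.60 to 3.03 FPKM (log2 fold change -0.58, limma adjusted p = 0.0142), and Tlr1, which pairs with Tlr2 to detect lipopeptides, went from 1.74 to 4.42 and then 1.54. Ticam2, an adaptor of Toll-like receptor 4, was lower in IMQ + BZLF than in control skin, at 1.31 against 2.82 (-1.06, adjusted p = 0.0018).

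Of 14 partners of C1q and other complement genes, 10 were lower in IMQ + NS than in control skin, against 27.1% of all genes. In IMQ + BZLF skin 11 were lower than in control skin, against 29.2% of all genes. C2, a component of the classical convertase, went from 33.5 to 9.49 and 13 FPKM and C3, the central component, from 148 to 56.3 and 44.5. Calr, the chaperone calreticulin that also binds C1q, was the 1 gene that rose in IMQ + NS skin, from 262 to 334 (0.35, adjusted p = 0.042). Serping1, the inhibitor of the C1 proteases, went from 463 to 151 and 158. C3ar1, the receptor for the C3a fragment, was the 1 gene of the list called lower in IMQ + BZLF than in IMQ + NS skin (8.08 to 3.89 FPKM, log2 fold change -1.04, limma adjusted p = 0.0195).

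**Figure D4:**
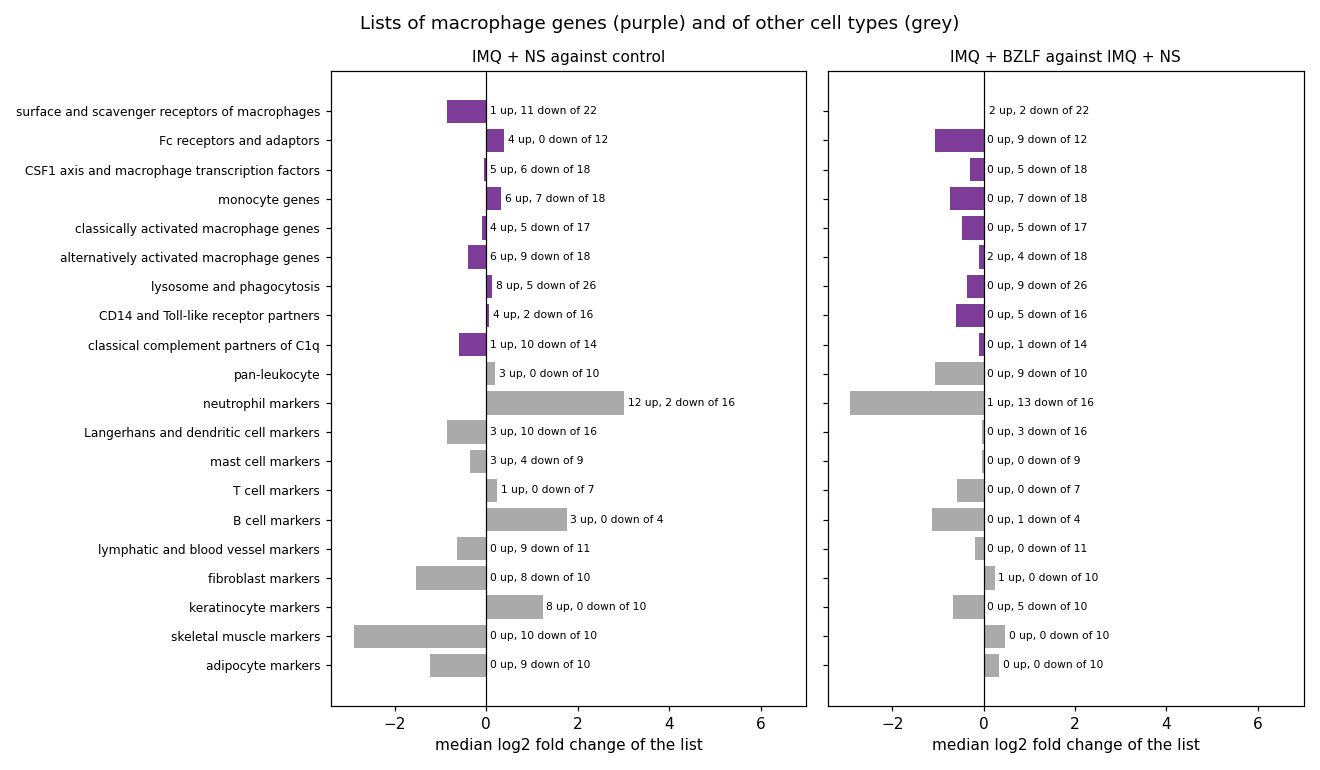
Median log2 fold change of each gene list, macrophage lists in purple and other cell types in grey, for IMQ + NS against control (left) and IMQ + BZLF against IMQ + NS (right), on the log2(FPKM + 0.1) scale, with the numbers of genes called higher and lower beside each list. The neutrophil markers had the largest shifts, with medians of 3.01 and -2.93, and the surface and scavenger receptors of macrophages had a median of -0.86 in IMQ + NS compared with control skin.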

How the data were processed

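RNA sequencing of mouse back skin was measured in 12 samples, 4 in each of 3 groups taken from the sample titles. The authors deposited FPKM values for 18505 genes, made per the submitters' processing notes with fastp, HISAT2 and HTSeq on mm10. The study's methods name other tools for extraction, library and alignment, and which made the table is not given in the sources used here. Values were tested as log2(FPKM + 0.1) with limma 3.58.1 (R 4.3.3, trend), keeping genes of mean FPKM of at least 0.1, each comparison fitted on its own 8 samples, and adjusted over 15288 genes. Genes were called at an adjusted p under 0.05. The fold changes understate those of low genes. The code was tested on simulated data. The file had 0 columns of no known sample. Other scalings, filters, added constants, fits and left-out samples were tried as alternatives. Exact permutation tests were two-sided. Members and gene lists were chosen with earlier results of these data known. For each macrophage list and comparison, the called gene of mean FPKM of at least 1 with the largest change in each direction was named, and genes named beyond that rule were chosen after their values were seen. RefSeq matched 18369 symbols.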

Additional observations from a re-analysis of the deposited data

Results flagged for a closer look

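In each group of 4 samples, the highest or lowest sample was set against the others by Dixon's criterion for the 10 markers. This gave 30 groups, of which 3 were past the 95% critical value, and chance alone passes about 1 in 20 groups. For Adgre1, IMQ + NS replicate 3 stood at 52.7 FPKM while the others were at 43.7 to 43.9. Also for Adgre1, IMQ + BZLF replicate 1 stood at 12.9 FPKM against 19.7 to 20.0. For Mrc1, the same IMQ + BZLF replicate 1 stood at 25.0 FPKM against 38.8 to 40.0. That sample was the lowest of its group for all 10 markers. Without it the log2 fold change of Mrc1 in IMQ + BZLF against IMQ + NS skin was -0.04 rather than -0.20 and that of Adgre1 was -1.20 rather than -1.36. Without IMQ + NS replicate 3 that of Adgre1 in IMQ + NS against control skin was 0.63 rather than 0.70.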

How the results depend on the processing

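The table gives no counts, and 4 samples a group limit every call. Of 570 values of single markers under the alternatives, 528 kept their direction and their side of the threshold, 35 fell below it, 7 passed it and 0 turned round. All 190 values for IMQ + BZLF against control were kept. The cause of the other changes was not tested. Requiring over 2-fold left 0 members higher and 1 lower in IMQ + NS against control, 1 lower in IMQ + BZLF against IMQ + NS, and 5 lower in IMQ + BZLF against control. In IMQ + NS against control, leaving out each library in turn gave 4 to 9 members lower against 8, and no filter or variances without a trend gave 6, without Cd68 and C1qb. In IMQ + BZLF against IMQ + NS, the count of 2 lower members became 1 without a filter on low values, with equal sums, with median ratio scaling, with quantile normalization, with all 12 samples in one fit and with variances without a trend, and was 1 to 3 with libraries left out. C1qb lost its call in 13 of 19 alternatives (adjusted p 0.0114 to 0.132), and Adgre1 kept its own in all 19 (4.2e-04 to 0.0103). With a replicate block that count was 6. The replicate numbers were not taken as pairs, since same-numbered samples correlated at -0.03 to 0.26 in this comparison, not above 0.1 in every pair, although 3 of 4 samples were nearest to their own number, a hint of shared variation. The median over all genes moved from 0.05 to -0.07 with equal sums or quantile normalization in IMQ + NS against control, where the median of the lysosome list changed sign with equal sums (0.13 to -0.01) and that of the Toll-like receptor list with equal sums (0.06 to -0.07) and quantile normalization (-0.08).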
